A study of Homo sapiens with 2 samples.

Results

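Host transcripts of small RNAs and a set of abundant long noncoding RNAs were examined in U2OS cells, an established human osteosarcoma line. Members were taken by symbol: genes named SNHG with a number (small nucleolar RNA host genes), genes named MIR with HG at the end (microRNA host genes), and 12 genes named singly (GAS5, DANCR, EPB41L4A-AS1, ZFAS1, NEAT1, MALAT1, TUG1, NORAD, MEG3, PVT1, CYTOR and OIP5-AS1). The rule found 65 members among 18083 gene symbols, namely 24 SNHG genes, 31 microRNA host genes and 10 of the genes named singly. MEG3 and EPB41L4A-AS1 are not listed in the table used here. No measured level entered the choice.

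The study sequenced RNA from asynchronous U2OS cultures that had received aphidicolin, an inhibitor of replicative DNA polymerases, at 0.3 µM for 18 h. There was 1 group, with 2 libraries called replicate 1 and replicate 2, and the RNA was selected on oligo(dT) beads. Untreated cells were not analysed here, so each value is a level under aphidicolin and no response to the drug was measured. The labels do not say whether the replicates came from separate cultures, so the differences between them may be technical.

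Small nucleolar RNAs guide ribose methylation (the box C/D class) or pseudouridylation (the box H/ACA class) of ribosomal and spliceosomal RNA. In human cells most lie in introns and are released by trimming after the host transcript is spliced, and the spliced SNHG RNA left over often has no long reading frame. MicroRNA host transcripts carry hairpins that Drosha cuts out in the nucleus, which can destroy the host RNA. The level of a polyadenylated host RNA is therefore not the level of the small RNA it carries, and neither mature microRNAs nor mature small nucleolar RNAs were measured by these libraries.

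The small nucleolar RNAs carried by the most abundant hosts are printed because they are the products for which those hosts are named. RefSeq gene spans (either strand) placed at least 1 small nucleolar RNA inside 19 of the 24 SNHG genes, 41 in all. Cajal body RNAs are not in this count. GENCODE places SCARNA16 in SNHG20, SCARNA15 in SNHG21 and SCARNA17 in SNHG22. SNHG1 carried 8 box C/D RNAs, and GAS5, with 11 small nucleolar RNAs, carried more than any other member. The sequences below are from the GENCODE release 29 transcripts on GRCh38. Each runs from the 5′ end, and capitals mark the letters TGATGA (the usual C box) and CTGA (the usual D box), or the ACA near the end of SNORA26.
SNORD25 in SNHG1 (chr11:62855564-62855632, minus strand): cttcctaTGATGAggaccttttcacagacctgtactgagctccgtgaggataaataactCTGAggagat
SNORD27 in SNHG1 (chr11:62855012-62855083, minus strand): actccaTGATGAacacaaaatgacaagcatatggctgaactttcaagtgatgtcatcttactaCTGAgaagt
SNORD30 in SNHG1 (chr11:62853663-62853732, minus strand): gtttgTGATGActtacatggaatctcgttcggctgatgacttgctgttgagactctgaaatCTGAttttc
SNORD60 in SNHG19 (chr16:2155023-2155105, minus strand): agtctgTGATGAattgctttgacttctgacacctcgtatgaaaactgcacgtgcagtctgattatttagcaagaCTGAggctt
SNORD49A in SNHG29 (chr17:16440036-16440106, plus strand): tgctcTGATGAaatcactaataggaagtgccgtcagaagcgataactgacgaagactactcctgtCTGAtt
SNORD49B in SNHG29 (chr17:16439505-16439576, plus strand): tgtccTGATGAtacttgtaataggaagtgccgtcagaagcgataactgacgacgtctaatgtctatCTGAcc
SNORD104 in SNHG25 (chr17:64146083-64146152, plus strand): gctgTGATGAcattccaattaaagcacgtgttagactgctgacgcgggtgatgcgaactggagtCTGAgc
SNORA26 in DANCR (chr4:52713249-52713370, plus strand): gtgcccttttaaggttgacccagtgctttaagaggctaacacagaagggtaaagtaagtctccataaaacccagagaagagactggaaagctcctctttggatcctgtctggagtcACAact

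The neighbours SNORD49A and SNORD49B, both inside SNHG29, share an unbroken stretch of 35 bases. Among the 24 box C/D RNAs that GENCODE places in a member on the same strand, 17 had TGATGA starting in the first 20 bases and 24 had CTGA starting in the last 20. The same letters in the same places were found on the given strand in 0.461% (TGATGA) and 7.72% (CTGA) of 35116 RefSeq promoter windows cut to 72 bases. ACA started in the last 10 bases of 19 of the 22 box H/ACA and Cajal body RNAs in members, against 9.49% of promoter windows cut to 130 bases.

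All 31 microRNA host genes contained a RefSeq microRNA, with 54 microRNA genes between them. RefSeq (GRCh38.p14) gave 89 mature sequences in 33 members. MIR612 in NEAT1 and MIR1204, MIR1205, MIR1206 and MIR1207 in PVT1 are not among them, nor in the seed counts below. Spans were again taken on either strand, and MIR5583-1 lies on the strand opposite to its host MIR924HG. The 7 microRNA host genes that reached 1 RPKM (reads scaled by exonic length and by the library total) carry 8 microRNA genes with 13 mature sequences, and 1 arm of each microRNA, the arm usually taken as the guide where RefSeq gives both, is printed first, with the seed, bases 2 to 8, in capitals.
hsa-miR-22-3p in MIR22HG (chr17:1713914-1713935, minus strand): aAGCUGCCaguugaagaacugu
hsa-miR-1915-3p in MIR1915HG (chr10:21496576-21496595, minus strand): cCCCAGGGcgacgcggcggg
hsa-miR-34a-5p in MIR34AHG (chr1:9151735-9151756, minus strand): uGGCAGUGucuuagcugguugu
hsa-miR-4453 in MIR4453HG (chr4:152536432-152536451, plus strand): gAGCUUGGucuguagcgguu
hsa-miR-3936 in MIR3936HG (chr5:132365513-132365534, minus strand): uAAGGGGUguauggcagaugca
hsa-miR-181a-5p in MIR181A2HG (chr9:124692480-124692502, plus strand): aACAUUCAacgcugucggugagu
hsa-miR-181b-5p in MIR181A2HG (chr9:124693725-124693747, plus strand): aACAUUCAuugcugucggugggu
hsa-miR-4458 in MIR4458HG (chr5:8460933-8460951, plus strand): aGAGGUAGguguggaagaa

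The seed of hsa-miR-4458, GAGGUAG, is that of the let-7 family, whose members repress growth genes. It occurred in mature microRNAs of 5 hosts, the other hosts being MIRLET7BHG, MIR100HG, MIR99AHG and MIR4500HG, and the other sequences are given for comparison.
hsa-let-7a-5p in MIRLET7BHG (chr22:46112752-46112773, plus strand) and in MIR100HG (chr11:122146568-122146589, minus strand): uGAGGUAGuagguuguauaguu
hsa-let-7b-5p in MIRLET7BHG (chr22:46113691-46113712, plus strand): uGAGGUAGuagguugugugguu
hsa-let-7c-5p in MIR99AHG (chr21:16539838-16539859, plus strand): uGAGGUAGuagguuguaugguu
hsa-miR-4500 in MIR4500HG (chr13:87618671-87618687, minus strand): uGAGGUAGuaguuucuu

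The mature sequences had 74 different seeds, of which 4 occurred in more than 1 host. Beside the let-7 seed these were ACCCGUA (miR-100 and miR-99a) and CCCUGAG (miR-125b), both in MIR100HG and MIR99AHG, and AUUGCAC (miR-92a in MIR17HG and miR-367 in MIR302CHG). In this set the host with the highest RPKM among those with the let-7 seed was MIR4458HG. By reads alone MIR100HG was higher, with 198 and 174 in replicates 1 and 2 against 141 and 118 for MIR4458HG.

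Of the 65 members, 35 (53.8%) reached 1 RPKM in both libraries, compared with 66.7% of all 17912 entries, 72.9% of protein-coding entries and 21.5% of the 1278 noncoding entries outside the set. The 3 kinds of member differed in level. SNHG genes passed in 18 of 24 cases (75.0%) with a median of 4.08 RPKM, and microRNA host genes in 7 of 31 (22.6%) with a median of 0.346 RPKM, so the SNHG median was 11.8 times that of the microRNA hosts. All 10 listed genes named singly passed, with a median of 20.4 RPKM. Every gene kept had reads in both libraries, so these are shares of detected genes, and the unlisted MEG3 and EPB41L4A-AS1 are not counted. The median was 1.44 RPKM for all members, 3.53 RPKM for all entries and 0.311 RPKM for noncoding entries outside the set, so the microRNA hosts lay near other noncoding genes and the SNHG genes near the middle of the whole table.

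**Figure D1:**
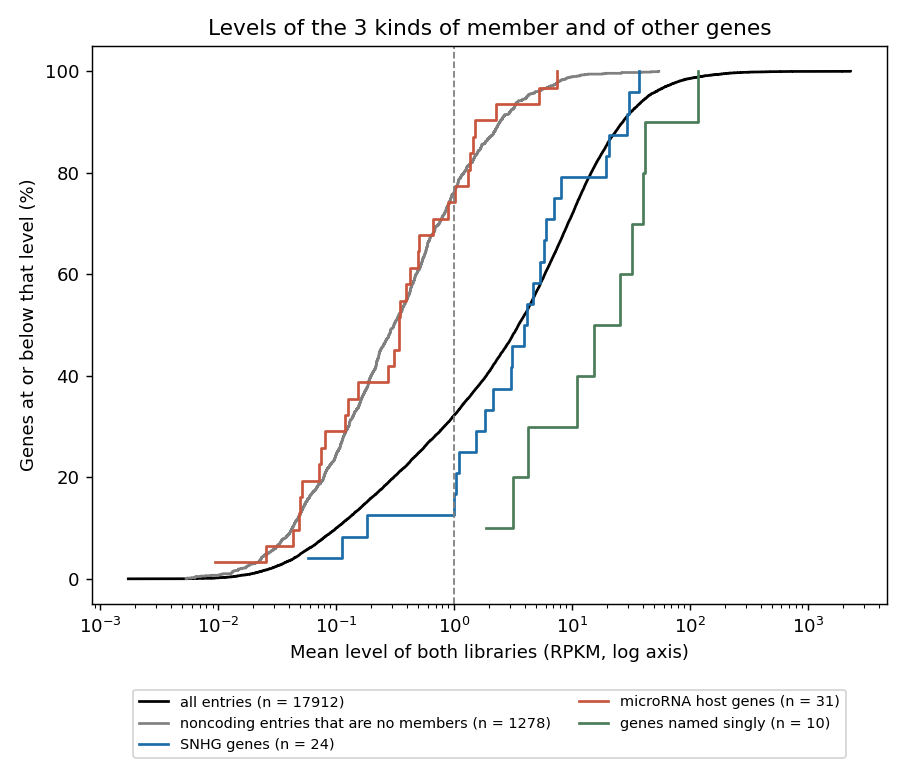
Cumulative share of genes (vertical axis, %) at or below each mean RPKM of both libraries (horizontal log axis), for all entries, noncoding entries outside the set and each kind of member; the dashed line is 1 RPKM. The line for microRNA hosts (median 0.346 RPKM) runs along that for other noncoding genes (median 0.311 RPKM), while the lines for SNHG genes (median 4.08 RPKM) and genes named singly (median 20.4 RPKM) lie to their right.

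Summed over all members, reads came to 44850 in replicate 1 and 42203 in replicate 2, which was 0.339% and 0.324% of the 13227805 and 13020149 reads in the table. A few long RNAs supplied most of them. MALAT1 took 33.05% and 30.14% of the members' reads, and MALAT1, NEAT1, NORAD and TUG1 together took 66.22% and 64.99%. SNHG genes took 16.63% and 16.64%, and microRNA hosts 3.90% and 4.01%. At this depth 1 RPKM over 2 kb of exon corresponded to 26.5 reads in replicate 1 and 26.0 in replicate 2.

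**Figure D2:**
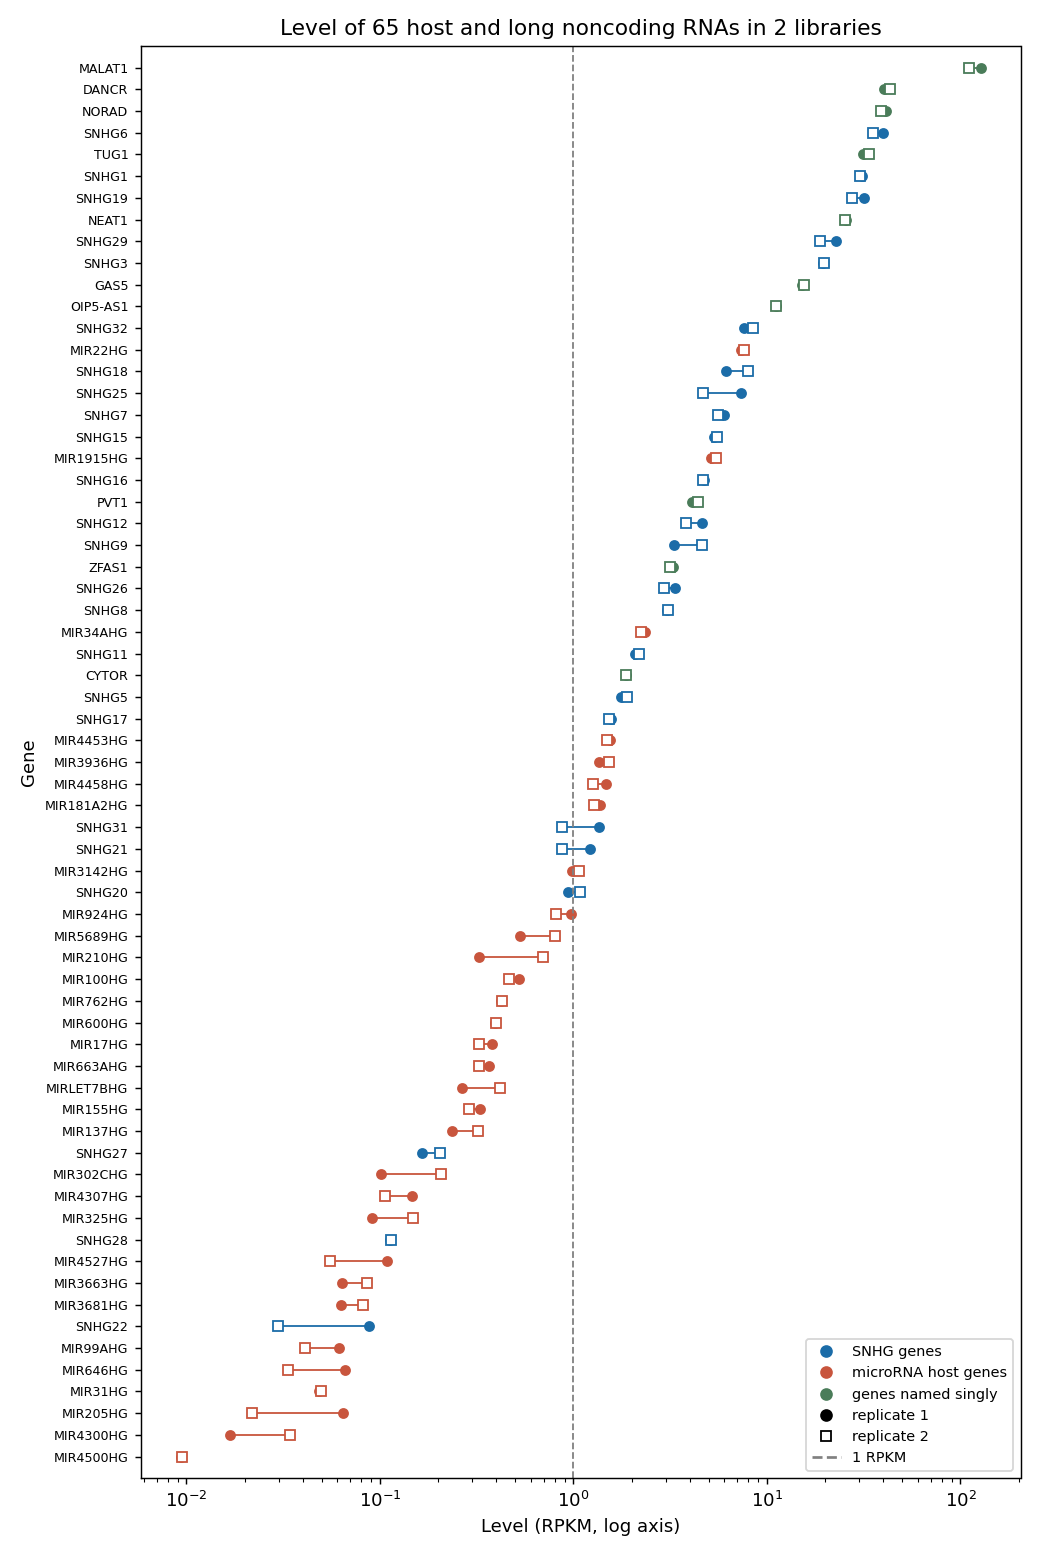
Level of each of the 65 members (RPKM, log axis) in replicate 1 (filled circles) and replicate 2 (open squares), ordered by mean; a line joins both libraries and the dashed line marks 1 RPKM. MALAT1 stands at the top with 127 and 111 RPKM, and 24 of the 31 microRNA hosts have at least 1 library below the line.

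Among the nuclear RNAs, MALAT1, a retained transcript of nuclear speckles (chr11:65497688-65506516, plus strand, GENCODE release 29), was the highest member at 127 and 111 RPKM (14822 and 12720 reads; here and below the first value is that of replicate 1). Its level was 118.8 ± 11.5 RPKM (SD, n = 2). The next member, DANCR, was at 40.3 and 43.2 RPKM, so MALAT1 stood apart from the others by more than the spread between libraries. NEAT1, the scaffold of paraspeckles, was at 25.6 and 25.3 RPKM (7711 and 7514 reads). Its short polyadenylated form and its long form overlap, and gene-level reads cannot tell them apart.

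MALAT1 is known to end at a cut made by RNase P rather than at an ordinary poly(A) tail, beside a run of A encoded in the genome. The longest run of A in the GENCODE transcript (8708 bases) had 13 letters, began at base 8337 and ended 359 bases before the end of the model. It is printed with its surroundings because the libraries were selected on oligo(dT); whether it was the part captured was not tested. Runs of at least that length occurred in 39 of 123 GENCODE noncoding transcripts of 7000 to 10000 bases (31.7%).
MALAT1, longest A run in capitals: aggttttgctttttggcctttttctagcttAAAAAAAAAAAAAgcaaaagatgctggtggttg

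NORAD, a cytoplasmic RNA that binds PUMILIO proteins (chr20:36045622-36050960, minus strand), was at 41.3 and 39.0 RPKM (2952 and 2744 reads). Its unspliced model of 5339 bases held 15 matches to TGTANATA, the PUMILIO recognition letters, on the transcribed strand. Among 894 GENCODE noncoding transcripts of 4000 to 7000 bases the median number was 0, 36.1% had at least 1 match, and 3 had at least 15. The first 3 matches are printed with the motif in capitals. The PUMILIO gene PUM2 was at 28.5 and 29.4 RPKM.
NORAD bases 761 to 768: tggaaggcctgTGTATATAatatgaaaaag
NORAD bases 1140 to 1147: cctcactactgTGTATATAgttgacaatgc
NORAD bases 1241 to 1248: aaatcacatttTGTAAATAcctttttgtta

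TUG1, a long noncoding RNA found in nucleus and cytoplasm, was at 31.4 and 33.7 RPKM (4214 and 4448 reads). OIP5-AS1, also called Cyrano and known for pairing with miR-7, was at 11.1 and 11.2 RPKM. PVT1, the neighbour of MYC, was at 4.11 and 4.39 RPKM (1357 and 1427 reads), and CYTOR at 1.86 and 1.86 RPKM. In all 4 genes the libraries lay within 10% of each other.

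Of the genes named singly that carry small nucleolar RNAs, DANCR, host of SNORA26, was at 40.3 and 43.2 RPKM. GAS5, a spliced RNA that accumulates in growth-arrested cells, was at 15.2 and 15.5 RPKM. ZFAS1, host of 3 small nucleolar RNAs, was lowest at 3.27 and 3.14 RPKM, from 72 and 68 reads. The order DANCR, GAS5, ZFAS1 was the same in both libraries, with no overlap between neighbours.

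SNHG genes spanned 0.0585 to 37.3 RPKM. The top of the range was formed by SNHG6 at 39.6 and 35.1 RPKM, SNHG1 at 31.1 and 30.3 RPKM and SNHG19 at 31.8 and 27.4 RPKM. The values of SNHG1 and SNHG19 overlapped, so their order was not resolved, and SNHG6 lay above both in each library. SNHG29 followed at 22.8 and 18.8 RPKM and SNHG3, host of the paired SNORA73A and SNORA73B (the U17 RNAs that act in ribosomal RNA cleavage), at 19.4 and 19.6 RPKM, again overlapping. SNHG32 was at 7.60 and 8.49 RPKM, SNHG18 at 6.16 and 7.99 RPKM and SNHG25 at 7.34 and 4.70 RPKM. SNHG25 rested on 27 and 17 reads, fewer than any other of the 20 highest members, so its position is loosely set.

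In the middle of the range, from SNHG7 at 5.97 and 5.61 RPKM down to SNHG17 at 1.55 and 1.52 RPKM, lay SNHG15, SNHG16, SNHG12, SNHG9, SNHG26, SNHG8, SNHG11 and SNHG5. SNHG31 (1.36 and 0.872 RPKM) and SNHG21 (1.22 and 0.875 RPKM) passed 1 RPKM in replicate 1 alone, and SNHG20 (0.931 and 1.09 RPKM) in replicate 2 alone. Lowest of all were SNHG27 at 0.165 and 0.205 RPKM, SNHG28 at 0.112 and 0.114 RPKM and SNHG22 at 0.0875 and 0.0296 RPKM. These last rested on 9 and 11, 3 and 3, and 3 and 1 reads, so counting error weighs heavily on them. SNHG22 had the same values as SCARNA17, a Cajal body RNA of 144 bases inside it. The length behind these values is 2593 bases, that of SNHG22, so they give no separate level of SCARNA17.

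MicroRNA hosts were mostly low. MIR22HG, host of a microRNA that often restrains growth, was highest at 7.37 and 7.64 RPKM (291 and 297 reads), and MIR1915HG was next at 5.11 and 5.44 RPKM. MIR34AHG, which p53 is known to switch on, was at 2.33 and 2.23 RPKM (268 and 253 reads). MIR4453HG was at 1.54 and 1.48 RPKM and MIR3936HG at 1.36 and 1.53 RPKM, which overlapped. Just above the 1 RPKM level were MIR4458HG (1.48 and 1.26 RPKM) and MIR181A2HG (1.37 and 1.28 RPKM, from 12 and 11 reads), and nearest to it among members that did not pass in both libraries were SNHG31 and SNHG21, which lay across it.

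The other 24 microRNA hosts did not pass in both libraries. MIR3142HG, which carries miR-146a, lay across the level at 0.986 and 1.07 RPKM. MIR17HG, the host of the miR-17 to miR-92a cluster of 6 microRNAs, was at 0.381 and 0.326 RPKM from 19 and 16 reads. MIR210HG, host of the hypoxia microRNA miR-210, was at 0.326 and 0.695 RPKM from 10 and 21 reads. MIR155HG was at 0.330 and 0.287 RPKM, MIRLET7BHG at 0.264 and 0.416 RPKM, and MIR31HG at 0.0486 and 0.0493 RPKM with 1 read in each library.

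Between these lay MIR924HG, MIR5689HG, MIR100HG, MIR762HG, MIR600HG, MIR663AHG and MIR137HG, with means from 0.889 down to 0.278 RPKM. MIR302CHG, MIR4307HG, MIR325HG, MIR4527HG, MIR3663HG, MIR3681HG, MIR99AHG, MIR646HG, MIR205HG, MIR4300HG and MIR4500HG had means from 0.154 down to 0.00945 RPKM. The values of MIR646HG equalled those of LOC729296, which RefSeq places in the same region, so that pair cannot be told apart. MIR302CHG, with 1 and 2 reads, had the same values as PAGE5, a gene on another chromosome.

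The unit changed the order of several members. RPKM divides by an exonic length, and the length behind each value could be recovered from the table. It exceeded the GENCODE release 29 length by more than 1.5 times in 18 of the 65 members (27.7%) and in 8 of the 35 that passed 1 RPKM (22.9%), against 537 of 17317 matched entries (3.1%). Here and below, values at the GENCODE length divide all recovered reads by that length. Reads outside the GENCODE exons could not be removed, so these values may be too high. SNHG8 was divided by 6608 bases where GENCODE has 923, and its mean came to 21.9 RPKM on this reckoning in place of 3.06. PVT1 was divided by 24957 bases against 5493 (19.3 in place of 4.25 RPKM), and SNHG5 by 8414 against 2806 (5.47 in place of 1.83 RPKM). SNHG17 and SNHG26 came to 4.34 and 7.13 RPKM on the same reckoning. MIR924HG, which had 150 and 124 reads and missed 1 RPKM, came to 3.75 RPKM. In some hosts the length behind the value covered nearly the whole gene. It was 3939 bases for SNHG15 (span 3.939 kb), 4842 for GAS5 (4.983 kb) and 4266 for SNHG12 (4.595 kb). Such values are lowered if most reads came from shorter spliced forms, which was not tested. The SNHG median carries the same limit.

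**Figure D3:**
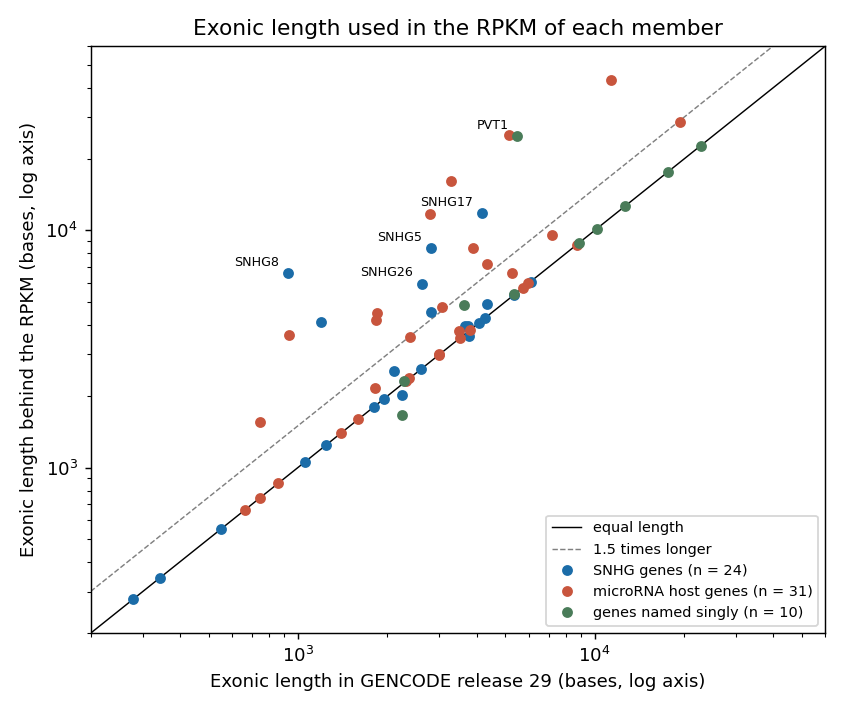
Exonic length behind the RPKM (vertical log axis, bases) against the GENCODE release 29 exonic length (horizontal log axis, bases) for the 65 members by kind; the solid line is equality and the dashed line 1.5 times longer. SNHG8, at 6608 against 923 bases, lies farthest above the lines among members that passed 1 RPKM, and 18 members lie above the dashed line.

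Ranked by reads alone (CPM, scaled by the library total and not by length), PVT1 moved from place 21 to place 7, CYTOR from 29 to 13 and NEAT1 from 8 to 2, while SNHG19, a short RNA of 342 bases with 144 and 122 reads, moved from 7 to 29. MALAT1 was first on both scales.

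Exons shared with other genes bear on some members, because the sources used here do not say whether reads were counted by strand. At least 10% of exonic bases overlapped another gene, small RNA genes not counted, on either strand in 15 of 65 members and in 8 of the 35 that passed. SNHG6 shared 29.3% with MCMDC2, ZFAS1 26.1% and SNHG32 23.2% with other genes, while 33 members shared none on this count. Some of those 33 share bases with small RNA genes, as SNHG25 does over 48.6% of its exonic bases. Reads of such genes and their overlapping partners cannot be told apart.

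Small RNAs carried by members were themselves listed in a few cases, at low read numbers. SNORD104 had 20 and 15 reads beside 27 and 17 for its host SNHG25. SNORA26 had 16 and 14 reads against 1242 and 1310 for DANCR, and SNORA73B 26 and 18 against 1051 and 1045 for SNHG3. In all, 68 small nucleolar and Cajal body RNA genes were listed with 350 and 340 reads, SCARNA17 with the values of SNHG22 included. Poly(A) selection and fragment length limit what these libraries hold of RNAs this short.

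The first letters of the transcripts were compared because messages for ribosomal proteins and many small nucleolar RNA hosts start with C followed by a run of pyrimidines, the element through which growth signals control translation. RefSeq (GRCh38.p14) gave a start for 55 of the 65 members. The first 5 bases were C and then 4 pyrimidines in 8 of these 55 (14.5%), in 5 of 20 SNHG genes, in 2 of 27 microRNA hosts (MIR762HG and MIR325HG, 7.41%) and in 1 of 8 genes named singly. The share was 5.14% of 27305 genes in the table of starts, 7.53% of entries at 1 RPKM, 3.15% of noncoding entries, 55.2% of the protein-coding hosts of small nucleolar RNAs (16 of 29) and 68.3% of ribosomal protein genes (43 of 63). A match is a description of letters at an annotated start, which can differ from the start used in these cells. The SNHG genes with a match, and ZFAS1, are shown from 20 bases before the start, on the gene's strand, with the run of pyrimidines at the start in capitals.
SNHG19 (chr16:2155319-2155378, minus strand): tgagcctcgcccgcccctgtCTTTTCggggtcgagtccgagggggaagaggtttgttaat
SNHG32 (chr6:31834896-31834955, plus strand): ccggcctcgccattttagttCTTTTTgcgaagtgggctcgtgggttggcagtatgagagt
SNHG18 (chr5:9546180-9546239, plus strand): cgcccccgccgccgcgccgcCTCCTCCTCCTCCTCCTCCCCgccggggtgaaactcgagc
SNHG12 (chr1:28581834-28581893, minus strand): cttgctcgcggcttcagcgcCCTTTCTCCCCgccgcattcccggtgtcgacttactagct
ZFAS1 (chr20:49278622-49278681, plus strand): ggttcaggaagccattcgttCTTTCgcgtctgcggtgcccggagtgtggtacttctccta
SNHG5 (chr6:85678694-85678753, minus strand): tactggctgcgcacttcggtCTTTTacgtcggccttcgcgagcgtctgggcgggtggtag

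Levels of these 6 genes ran from 29.6 RPKM (SNHG19) to 1.83 RPKM (SNHG5). The SNHG genes that matched numbered 5 of the 14 at 1 RPKM with a start (35.7%). GAS5, often cited for its pyrimidine start, did not match at the RefSeq start used here, and neither did SNHG1, whose run stopped after 3 letters.

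Some members started beside a protein-coding gene read in the other direction. Such a start within 1 kb was found for 13 of 65 members and 10 of the 35 that passed (28.57%), against 25.8% of noncoding entries and 34.09% of noncoding entries at 1 RPKM. Levels within these pairs ranged widely. SNHG1 (31.1 and 30.3 RPKM) lay 188 bases from SLC3A2 (33.4 and 32.3 RPKM), a subunit of amino acid transporters. SNHG9 (3.29 and 4.60 RPKM) lay 99 bases from the ribosomal protein gene RPS2 (243.9 and 247.2 RPKM). SNHG18 (6.16 and 7.99 RPKM) lay 125 bases from SEMA5A (0.184 and 0.256 RPKM), so here the noncoding side was the higher in both libraries.

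The only comparison the samples allowed was between the libraries. Reads were compared by an exact binomial test (two-sided) with Benjamini-Hochberg adjustment over the 11944 entries at 1 RPKM, and 203 were called (1.7%), with 122 higher in replicate 2 (1.02%) and 81 higher in replicate 1 (0.678%). Of the 35 members tested, 3 were called and 6 had an unadjusted p under 0.05, against 1421 of all entries. The test weighs counting error alone, so a call says that these 2 libraries differed, not why.

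MALAT1 was lower in replicate 2, at 111 against 127 RPKM, a log2 ratio of -0.19 (SE 0.02, exact binomial test, Benjamini-Hochberg adjusted p = 1.6e-24). Among 1075 entries with at least 5000 reads in both libraries together, the median size of the log2 ratio was 0.04, and 7 entries differed as much as MALAT1 or more, itself included. NEAT1, in the same class of depth, had a log2 ratio of -0.01. SNHG29 was also lower in replicate 2, with a log2 ratio of -0.27 (SE 0.07, exact binomial test, Benjamini-Hochberg adjusted p = 0.00556). This call rests on read numbers set by the GENCODE length. The RPKM values also allow 360 and 293 reads, and with the smallest whole reads in every gene SNHG29 was not called (exact binomial test, adjusted p = 0.329). Some of its exonic bases are shared with LRRC75A.

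TUG1 was higher in replicate 2 by 0.11 on the log2 scale (SE 0.03, exact binomial test, Benjamini-Hochberg adjusted p = 0.0387), and this call was lost when libraries were scaled by their totals or when no level was required. SNHG18 had a larger log2 ratio of 0.38 from fewer reads (159 and 203) and was not called, with an exact binomial adjusted p of 0.237.

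**Figure D4:**
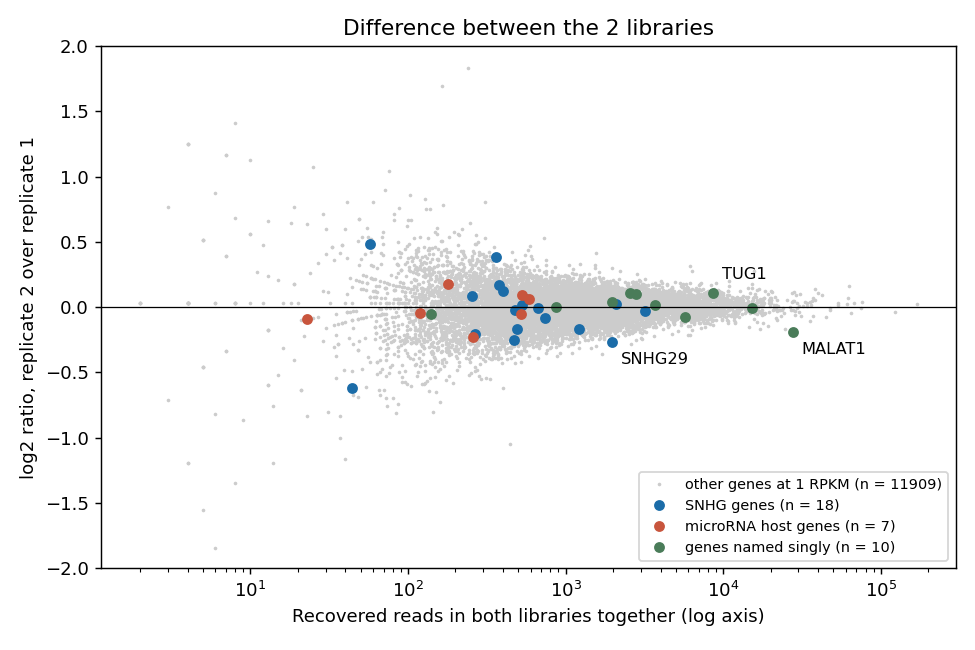
log2 ratio of replicate 2 over replicate 1 (vertical axis) against recovered reads in both libraries together (horizontal log axis) for entries at 1 RPKM; grey points are the 11909 other genes and coloured points the 35 members by kind. The called members MALAT1 (-0.19), SNHG29 (-0.27) and TUG1 (0.11) are named, and the spread of all genes narrows with reads.

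Genes for the proteins that handle these RNAs were examined from lists of their own. All 8 core proteins of small nucleolar ribonucleoproteins passed 1 RPKM (median 40.9 RPKM), led by NOP10 at 107 and 122 RPKM, FBL, the methyltransferase of box C/D particles, at 108 and 103 RPKM, and NOP56 at 43.0 and 42.2 RPKM. The 11 assembly factors all passed (median 10.8 RPKM), with NOLC1 at 50.6 and 51.4 RPKM, RUVBL2 at 35.4 and 34.6 RPKM and NOP53 at 28.7 and 27.8 RPKM. No gene of these lists was called between libraries.

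All 18 genes of nonsense-mediated decay, the pathway known to remove GAS5 and other spliced host RNAs, passed (median 11.5 RPKM), with SMG5 at 41.8 and 40.3 RPKM, MAGOH at 29.7 and 27.6 RPKM and CASC3 at 26.0 and 27.1 RPKM. All 15 genes of the nuclear exosome and RNA end trimming passed (median 12.4 RPKM), among them the exonuclease XRN2 at 68.3 and 70.3 RPKM, the helicase MTREX at 25.5 and 24.7 RPKM and EXOSC9 at 23.4 and 24.5 RPKM.

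Of 16 microRNA processing genes 15 were listed and passed (median 9.65 RPKM), with RAN, which drives export of precursors, at 81.9 and 85.1 RPKM, DROSHA at 27.0 and 28.2 RPKM and AGO2 at 20.8 and 20.2 RPKM, while LIN28A was not listed. All 11 paraspeckle protein genes passed (median 39.6 RPKM). NONO stood at 129 and 130 RPKM, HNRNPK at 118 and 123 RPKM and SFPQ at 68.7 and 69.7 RPKM. Each was above the 25.6 and 25.3 RPKM of NEAT1, the RNA they assemble on. The NEAT1 value divides its reads by 22767 bases, which lowers it if most reads came from the short form, so the order depends on that length.

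The lists of protein-coding hosts had higher medians than the SNHG genes and microRNA host genes of the set. GENCODE release 29 also types 1 member of each kind, SNHG32 and MIR1915HG, as protein-coding. Hosts of small nucleolar RNAs passed in 38 of 39 cases with a median of 80.9 RPKM, beside 4.08 RPKM for SNHG genes. RPS12 was at 560 and 568 RPKM and EEF2 at 454 and 446 RPKM, and the ribosomal protein genes RPL7A, RPL3 and RPL27A were among the hosts called between libraries. EIF4A1 was the exception at 0.782 and 0.664 RPKM from 55 and 46 reads. Exons shared with other genes were examined for members only, so whether such sharing lowered a value in these lists was not tested. Among protein-coding hosts of microRNAs 27 of 30 listed genes passed and the median was 12.2 RPKM, beside 0.346 RPKM for the microRNA host genes of the set. MCM7, the replicative helicase subunit that carries the miR-106b cluster, was at 77.5 and 80.9 RPKM, VMP1, which overlaps MIR21, at 64.7 and 64.8 RPKM and ACADVL at 48.6 and 49.7 RPKM, while SLIT3 and CALCR (lowest at 0.0179 and 0.0182 RPKM) were among those below 1 RPKM and MEST was not listed. These lists are of unlike gene classes, and the differences are given as medians with no test.

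As a check of the cell type, 5 of the 6 listed osteoblast and mesenchymal markers passed 1 RPKM (RUNX2, ALPL, SPARC, COL1A1 and VIM), with a summed level of 745 and 753 RPKM, and BGLAP did not. Markers of other cell types had summed levels of 1.38 and 1.26 RPKM (haematopoietic, 1 of 3 listed passed), 5.22 and 5.38 RPKM (epithelial, 2 of 4), 1.41 and 1.33 RPKM (endothelial, 0 of 4), 11.4 and 11 RPKM (neuronal, 3 of 4) and 0.106 and 0.378 RPKM (hepatocyte, 0 of 1). Their part in the members' levels was not tested. In bulk RNA, fewer cells with a transcript and less of it per cell cannot be told apart.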

How the data were processed

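Polyadenylated RNA of the 2 U2OS libraries was sequenced, and the authors deposited RPKM values (reads divided by the exonic length and the depth of the library) per gene. The submitters' processing notes name Trim Galore, HISAT2 and featureCounts and the builds hg38 and GRCh38.p13; no source used here gives versions, strand setting or annotation. Of 18277 rows, 194 whose symbols occur in several rows were left out, and genes with identical values were counted once, which left 17912 entries. Whole reads were recovered from the ratio of both libraries' RPKM in each gene (100% whole at a tolerance of 1e-12). For 60 members the smallest whole numbers that also give a whole exonic length were used, and for DANCR, SNHG19, SNHG28, SNHG29 and MIR762HG a multiple nearer to the GENCODE release 29 length. Reads were compared by a two-sided exact binomial test after trimmed-mean scaling (factor 0.9956), called at a Benjamini-Hochberg adjusted p of 0.05 and tested on simulated data (Python 3.11.15, numpy 2.4.6, scipy 1.17.1, pandas 2.3.3, matplotlib 3.10.9). Values were named for the 15 highest members, each member named singly, each called member, the 5 highest microRNA hosts, the 3 lowest SNHG genes, the 2 nearest members that passed and did not pass 1 RPKM in both libraries and the 3 highest of each other list; others were named after their values were seen, and some genes under this rule are not reported here. The members and lists were chosen with earlier results of these data known. Gene coordinates are from GENCODE release 29 (GRCh38), which matched 96.4% of entries. Alternative levels, scalings and lengths were tried; the GENCODE length, leaving out MALAT1, the smallest whole reads and overlap without small RNAs were chosen after seeing the data.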

Additional observations from a re-analysis of the deposited data

How the results depend on the processing

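No paired analysis was possible because there was only 1 group. The 35 members that passed became 18 at 5 RPKM, a level that 42.8% of all entries passed. They became 21 of 41 when members sharing 10% or more of their exonic bases with any gene, small RNAs included, were left out (27 of 50 with small RNAs not counted). A level of 0.5 RPKM gave 41 members (passed by 73.9% of all entries), 2 RPKM 28 (58.2%) and 1 CPM 45 (78.3%). Replicate 2 alone gave 37 (67.7% of all entries) and replicate 1 alone 37 (67.8%). The GENCODE length gave 37, with no share over all entries computed. The median level of 1.44 RPKM was 5.43 RPKM among members that passed, 6.72 as TPM, 2.23 RPKM at the GENCODE length, 1.40 RPKM without MALAT1 and 1.48 RPKM in either library alone. On the log2 scale it was 1.29 with a pseudocount of 1 RPKM and 0.62 with 0.1 RPKM. The members' share of reads fell from 0.332% to 0.227% without MALAT1, and was 0.324% and 0.339% in single libraries. The SNHG median was 11.8 times that of microRNA hosts, 3.71 times among members that passed, 14.4 times at the GENCODE length, 11.9 times in CPM and 12 to 12.95 times in single libraries. Of the 3 calls between libraries, that of MALAT1 stayed under every setting tried, SNHG29 was lost with the smallest whole reads (154 calls in all), and TUG1 was lost with library totals (200 calls in all), with no filter (183) and at an adjusted p of 0.01 (108). Leaving out a library was not run for that comparison, which needs both. Depth limits the lowest members, 9 of which had under 5 reads in each library, and intervals would cover counting error only.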
